A study of Mus musculus with 4 samples.

Results

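The miRNA content of cortical neurons on Day 8 of culture, the most mature culture of a maturation series, was read from 1 array by ranking every probe that named a mouse miRNA. Members were all probes with a mouse name in the scanner file, 1030 probes with 4 spots each, which filled 4120 of the 12312 spots. The neurons were primary cells from the cortices of embryos at gestation day 15 of Swiss Albino mice, grown in Neurobasal medium with B27 on poly-d-lysine and labelled as untreated. RNA of separate experiments was pooled before labelling, and sister arrays of the same kind covered Days 2, 4 and 6. With 1 array and no replicate, no test of any difference exists, and each ± below is the SD over the 4 spots of a probe, which covers technical error within the array and not the spread between cultures.

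The signal was the mean foreground intensity in the green (Hy3) channel minus the local background, averaged over spots and left without normalisation. A probe was called detected at 300 or more, the threshold of the study's methods, and saturated where at least 50% of its pixels, averaged over spots, stood at the upper limit of the scanner. Probes differ in how strongly they bind and can catch close relatives of their target, so the order of signals is an order of probes and not a count of molecules. A probe under 300 was below this threshold, which does not show that its miRNA was absent.

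A miRNA is a short RNA that leads an Argonaute protein to messenger RNAs and lowers their translation or stability. Pairing rests mainly on the seed, bases 2 to 8 from the 5′ end, so miRNAs with 1 seed form a family with overlapping targets. Each is cut from a hairpin with a 5p and a 3p arm, and in the names used by this array a star marks the arm thought to be the minor product. In cortex, miR-124 and miR-9 are known for driving and holding the neuronal state, let-7 for its rise as cells leave the cell cycle, and the imprinted cluster between Dlk1 and Dio3 for its activity in brain.

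Mature sequences were matched by name to the RefSeq set of GRCm38.p6 for 544 of the 1030 probes, among them 17 of the 25 brightest. The probes of ranks 1 to 5, miR-124, miR-1937a/miR-1937b, miR-1937a, miR-709 and miR-720, were not matched. The sequences of ranks 6 to 13 are shown first, with the seed in capitals, because they are the brightest matched probes. No seed occurs more than once among these 8.
miR-9: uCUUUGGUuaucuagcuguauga
miR-9*: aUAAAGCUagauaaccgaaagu
miR-125b-5p: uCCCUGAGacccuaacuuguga
miR-690: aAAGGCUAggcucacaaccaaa
miR-491*: cUUAUGCAagauucccuucuac
miR-1983: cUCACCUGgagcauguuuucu
miR-2137: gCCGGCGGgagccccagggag
miR-882: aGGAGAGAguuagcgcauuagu

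The let-7 family is shown because its members, which share the seed and differ by few bases outside it, had signals from 1712 to 11349.6.
let-7c: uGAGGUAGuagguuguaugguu
let-7e: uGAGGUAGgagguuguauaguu
let-7g: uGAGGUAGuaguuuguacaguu
let-7i: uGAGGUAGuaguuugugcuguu
let-7b: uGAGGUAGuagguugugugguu
let-7d: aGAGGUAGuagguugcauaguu
let-7a: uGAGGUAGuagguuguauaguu
let-7f: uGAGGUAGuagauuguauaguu
miR-98: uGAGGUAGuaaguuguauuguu

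The last set holds relatives with 1 seed whose probes are compared below, and leading members of the imprinted cluster on chromosome 12.
miR-130a: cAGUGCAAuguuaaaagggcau
miR-301a: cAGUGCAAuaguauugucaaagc
miR-130b: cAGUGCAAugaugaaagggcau
miR-16: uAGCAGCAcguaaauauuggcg
miR-15a: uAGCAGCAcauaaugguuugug
miR-15b: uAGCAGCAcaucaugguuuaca
miR-125a-5p: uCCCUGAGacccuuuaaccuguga
miR-136: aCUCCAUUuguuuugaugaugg
miR-433*: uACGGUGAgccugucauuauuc
miR-376a: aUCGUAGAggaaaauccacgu

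On Day 8, 388 of the 1030 probes were detected, a share of 37.7%, and 642 stayed under 300. The profile was steep. The 10 brightest probes held 37.3% ± 0.319 (SD over the 4 spot positions) of the summed signal, the 25 brightest 55.7% ± 0.773, and the 100 brightest 79.8% ± 0.138. Among the 10 brightest, 8 were saturated, so these shares are lower bounds, and the scanner restricts the spread of those 8. By the same limit, shares of signal of probes or families without saturation are upper bounds. It took 19 probes to reach 50% of the signal, 208 to reach 90% and 323 to reach 95%. The 642 probes under the threshold together held 3.44%.

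The median signal of all mouse probes was 144 and the mean 1558. Of the detected probes, 179 lay from 300 to under 1000, 123 from 1000 to under 3000, 57 from 3000 to under 10000, 17 from 10000 to under 30000, and 12 at 30000 or more. The 1108 empty spots had a median of 4.85 and a 99th percentile of 91.1, and 3 of them reached 300. The 7 negative control probes lay between -14.3 and 117, all under the threshold. The median coefficient of variation over the spots of a detected probe was 4.41%, and 371 of the 388 detected probes had every spot at 300 or more.

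**Figure D1:**
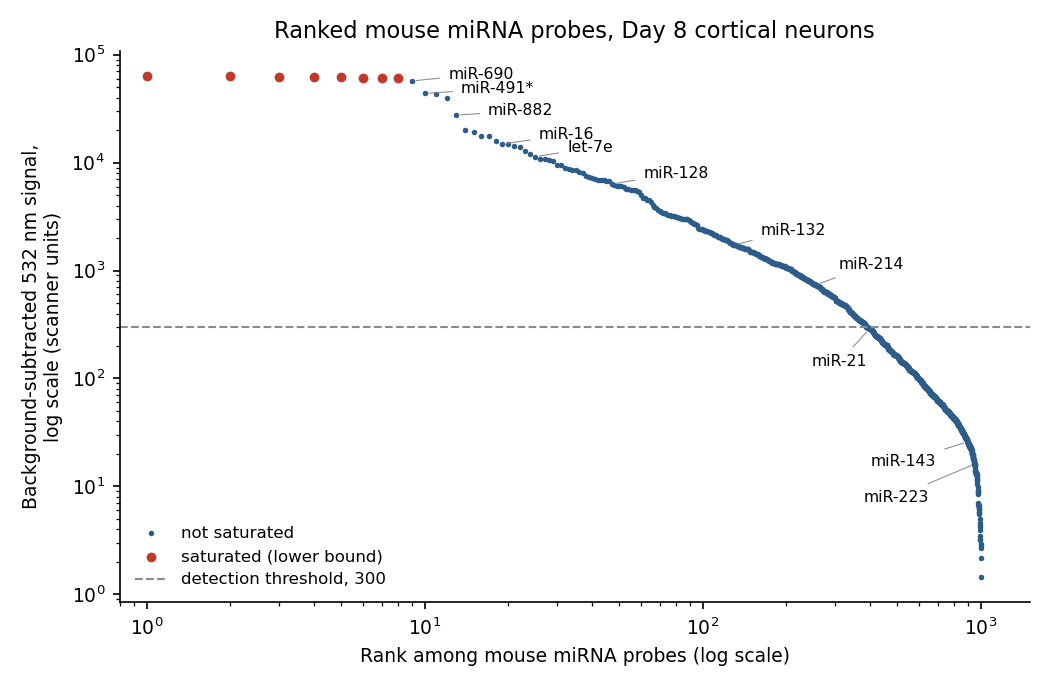
Background-subtracted signal in the green channel (log scale, scanner units) of mouse miRNA probes against their rank on Day 8 (log scale). Red points are the 8 saturated probes, blue points the others, the dashed line is the threshold of 300, and 28 probes with a signal under 1 are not drawn. The curve falls steadily with no gap at the threshold, and miR-143 and miR-223 lie near its lower end.

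The limit of 300 cut through a continuous slope. Just above it were miR-370 with 312 ± 15.5, miR-190 with 305 ± 19.8, miR-134 with 304 ± 8.00, miR-466j with 303 ± 20.1 and miR-872 with 302 ± 138. Just below it were miR-193 with 299 ± 7.80, miR-26a-2* with 299 ± 16.5, miR-466a-5p with 297 ± 49.8, miR-760-3p with 295 ± 18.4 and miR-412-3p with 294 ± 318. Each of these probes had spots on both sides of the limit, so their calls do not separate them. In all, 17 detected probes had a spot under 300 and 28 undetected probes had a spot at 300 or more.

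The probes that reached the limit of the scanner came first. Of the 8 saturated probes, 4 belong to the best known neuronal miRNAs or to a widely expressed family, namely miR-124, miR-9, miR-9* and miR-125b-5p, and 4 do not, namely miR-709, miR-720, miR-1937a and a probe named for both miR-1937a and miR-1937b. Their signals give lower bounds, and their order among themselves has no meaning. Together they held 31.0% of the summed signal.

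The probe of miR-124, which is the most abundant miRNA known in neurons, read 63817, 63945, 63690 and 63607 on its 4 spots, with a mean of 90% saturated pixels. The opposite arm miR-124* was far from saturation with 574 ± 50.01 and rank 293. The miR-9 probe read 61371, 61430, 61182 and 60990.4, and the miR-9* probe read 61056, 61299.8, 61181 and 60783. Thus both arms of the miR-9 hairpin were saturated, and miR-9 was the single hairpin of 179 with a probe for each arm in which this occurred. The miR-9 sequence is encoded by 3 genes, at chr3:88215613-88215635, chr7:79505279-79505301 and chr13:83738821-83738843, all on the plus strand. The copy on chromosome 13 lies within the interval of the non-coding gene C130071C03Rik.

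For miR-125b-5p, a widely expressed miRNA that is abundant in brain, the spots were 53968, 63352, 63246 and 63088. The first of these had 18.0% saturated pixels and stood clear of the other spots, which gave the probe an SD of 4632, the largest among the saturated probes. Its sequence comes from chr9:41581940-41581961 and chr16:77646279-77646300. The probes of miR-1937a/miR-1937b, miR-1937a, miR-709 and miR-720 had means of 63753 ± 195, 62653 ± 278, 62089.7 ± 230 and 61685 ± 811. The name miR-720 is known from human work to stand for a piece of a transfer RNA. No spot of these probes fell below the spots of miR-690, the next in rank.

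Next to the saturation limit stood miR-690, at 57199 ± 743 with 17.5% saturated pixels. Its sequence, at chr16:28599940-28599961 on the minus strand, lies within the interval of Fgf12, a gene for an intracellular factor that modulates sodium channels. The probe of miR-491*, whose mature sequence at chr4:88122091-88122112 lies within the interval of Focad, followed with 55017, 40625, 40378 and 39562. The first spot lay clear above the others, and with it the mean was 43895.5 ± 7428. Then came miR-1983 at 43298 ± 549 and miR-2137 at 40086 ± 1236, the latter at chrX:72992113-72992133 within Zfp185.

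The probe of miR-882 read 28559, 26985, 27774 and 26774. Its sequence at chr12:109682207-109682228 lies between Dlk1 and Dio3, and it was the brightest probe matched to that domain. After miR-882 the signal fell to 19894 ± 193 for miR-691, whose sequence lies within the interval of Robo2, an axon guidance receptor gene, and to 19285 ± 400.4 for miR-207, within Dnaja1. No spot of miR-691 or miR-207 reached the lowest spot of miR-882. The ranks from 16 to 25 were held by miR-3068*, miR-130a, miR-1186b, miR-16, miR-301a, miR-136, miR-1274a, miR-181a, miR-33 and let-7e, from 17837 ± 1797 down to 11349.6 ± 350. Neighbours in this stretch overlapped over spots: the rank of miR-130a ran from 15 to 22 and that of miR-181a from 22 to 28 when each spot position was ranked alone.

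**Figure D2:**
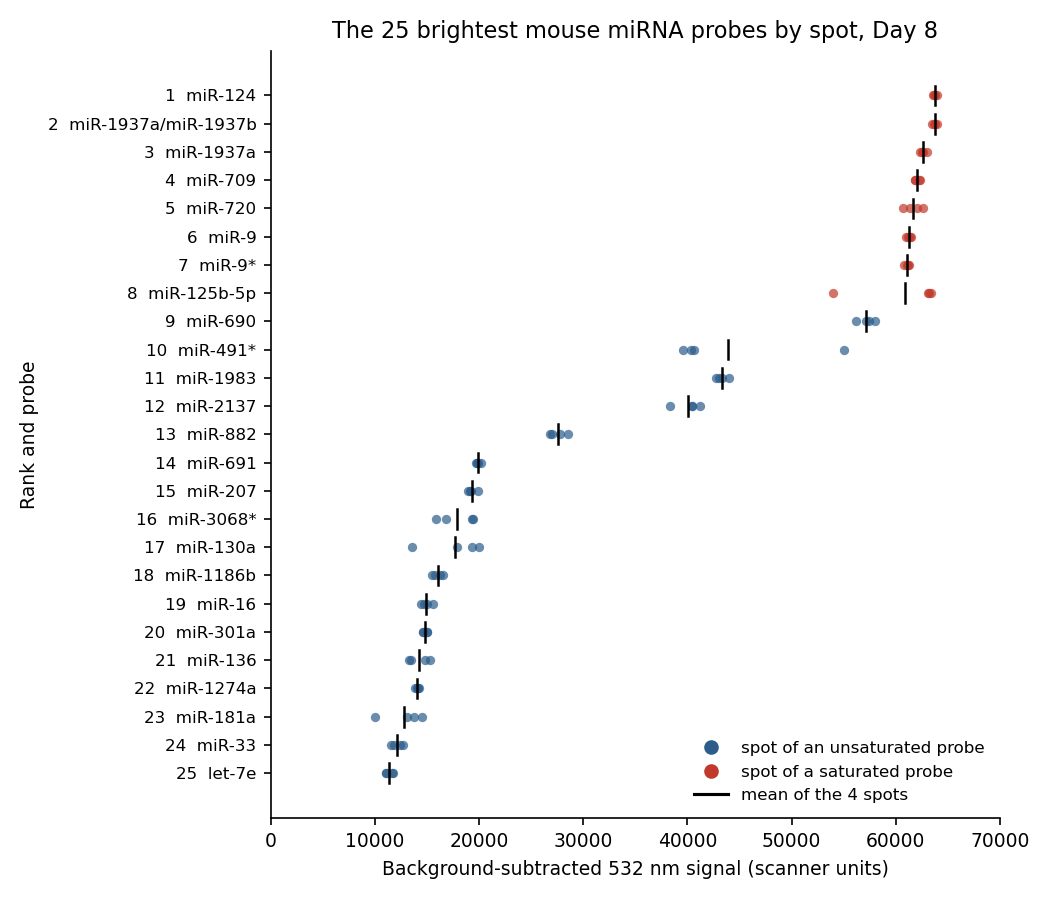
Background-subtracted signal in the green channel (scanner units) of each of the 4 spots of the 25 brightest mouse probes on Day 8, by rank, with a black line at the mean. Spots of saturated probes are red. miR-125b-5p, miR-491*, miR-130a and miR-181a each have 1 spot apart from the other spots. The 4 spots of miR-124 and of miR-9 lie close together, but these probes are saturated and the scanner limits their spread.

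Among these single miRNAs, miR-33, which sits in an intron of the cholesterol regulator Srebf2 and is known to restrain cholesterol export, gave 11565.5, 11842, 12428 and 12678. It held rank 24 at every spot position, while its opposite arm miR-33* was under the threshold with 69.9 ± 22.4. The probe of miR-136 gave 13236, 13451, 14767 and 15251. The name miR-1274a, like miR-720, is known from human work to match a transfer RNA, and its spots read 13846, 14219.9, 14077 and 13980.

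Probes named for mouse miRNAs alone also reached the upper ranks. The names come from the array and do not measure conservation. Probes that also name a human or rat miRNA made up 508 of the 1030, and 226 of them (44.5%) were detected, beside 37.7% of all mouse probes. Of the 522 probes that name mouse miRNAs alone, 162 (31.0%) were detected, yet 19 of the 50 brightest probes and 46.5% of the summed signal were theirs. The names from miR-690 to miR-721 covered 35 probes. Of these, 15 (42.9%) were detected, a share near the 37.7% of all mouse probes, and 2 were saturated. The 35 probes held 14.5% of the signal, led by miR-709, miR-720, miR-690, miR-691 and miR-711, the last with 7138 ± 208.

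In all, 72 families, listed by the number in the miRNA name or by genomic cluster, covered 595 probes and 49.9% of the signal. Of their probes, 245 (41.2%) were detected, beside 37.7% of all mouse probes. The other 435 probes held 50.1% of the signal and 22 of the 50 brightest places, with miR-1937a, miR-709, miR-720, miR-690, miR-491*, miR-1983, miR-2137, miR-882, miR-691 and miR-207 at their head. Of the 72 families, 14 held at least 1% of the summed signal each, 6 had every probe detected and 15 had none.

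**Figure D3:**
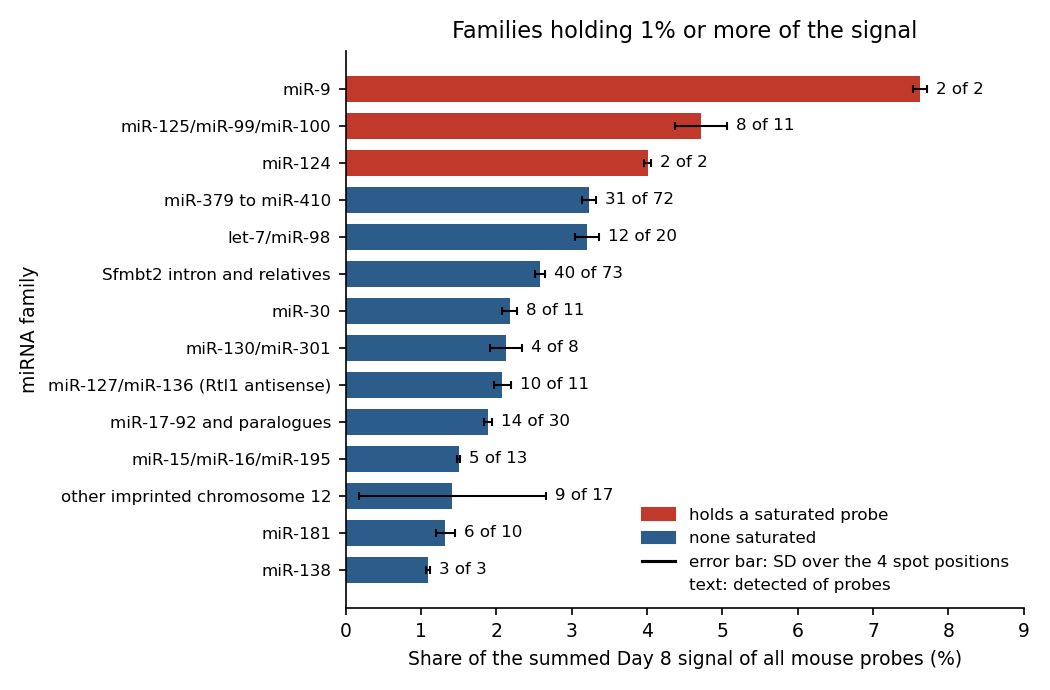
Share of the summed Day 8 signal of all mouse probes (%) held by each family with 1% or more, with the SD over the 4 spot positions as error bar and the number of detected probes of all probes of the family beside it. Red bars hold a saturated probe. The 3 red bars are the longest, and the wide error bar of the other imprinted miRNAs of chromosome 12 comes from a single spot of miR-493.

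The 3 families with a saturated probe, those of miR-9, miR-125 and miR-124, held the largest shares, and their order has no meaning. Leaving out saturated probes removes both probes of the miR-9 family, so its share of 0% is by construction. The miR-125 group then held 1.34% of the remaining signal, and the miR-124 family, left with miR-124* alone, 0.0518%. With saturated probes, the miR-9 family held 7.62% ± 0.0901 of the signal through its 2 probes. The miR-124 family held 4.01% ± 0.0490, nearly all of it from miR-124. The miR-138 family, which is known for limiting the size of dendritic spines, had 3 of 3 probes detected, beside 37.7% of all mouse probes. Its miR-138 probe read 10791 ± 478 and the star arms of its 2 genes, miR-138-2* and miR-138-1*, read 5756 ± 80.4 and 1066 ± 31.3, for 1.1% ± 0.0284 of the signal. Lower down were miR-128, a brain miRNA that dampens neuronal excitability, at 6320.4 ± 89.97 and rank 47, and miR-129-1-3p at 5383 ± 135. The probe of miR-153, which targets synaptic vesicle genes, read 3558 ± 109.

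Still detected, but well down the ranking, were miR-218 with 2337 ± 310, the activity-induced miR-132 with 1723 ± 196, and miR-137 with 1974 ± 119. The sister of miR-132 from the same transcript, miR-212-3p, read 1045 ± 46.0. The ranks of miR-218, miR-137 and miR-132 were 102, 117 and 129 among the 388 detected probes. The probe of miR-7a read 1172 ± 47.9 and that of miR-34a 1282 ± 33.9. The miR-344 family had 1 of 16 probes detected (6.25%), miR-344b* with 331 ± 18.9, beside 37.7% of all mouse probes.

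The group of miR-125 with its neighbours miR-99 and miR-100, which are encoded beside let-7 genes, held 4.72% ± 0.347 of the signal. It had 8 of 11 probes detected (72.7%), beside 37.7% of all mouse probes. The saturated miR-125b-5p alone held 3.80%. Its seed mate miR-125a-5p read 8233 ± 379 and rank 36. As printed above, miR-125a-5p has 24 bases and miR-125b-5p has 22. Outside the seed, miR-125a-5p holds an additional UU and, further on, a C in place of a U. With a gap at the UU, the other bases are the same. The spots of the pair were far apart. Of the other members, miR-99a gave 2425 ± 12.2, miR-99b 1166 ± 61.6 and miR-100 746 ± 31.6, while miR-99a* and miR-100* stayed under the threshold.

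The let-7 family had 12 of 20 probes detected (60%), beside 37.7% of all mouse probes, and held 3.20% ± 0.163 of the signal. All 9 members printed above were detected. let-7e gave 11076, 11025, 11586 and 11712, and let-7c gave a mean of 10572 ± 868, and the spots of these probes overlapped. let-7g with 7007 ± 355 and let-7i with 6893 ± 135 also overlapped. Below them came let-7b with 4473 ± 722, let-7d with 2709.7 ± 165 and let-7a with 2391 ± 129. The lowest were let-7f with 1771 ± 19.0 and miR-98 with 1712 ± 60.6.

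The sequences of the family differ by little. let-7a differs from let-7c by G19A alone, counted from 1 at the 5′ end with the base of let-7c first, and let-7b by A17G alone. let-7e differs by U9G and G19A, and let-7f by G12A and G19A. In spite of a single base between them, no spot of let-7a reached the lowest spot of let-7c. How far each probe also catches its relatives was not tested, so the order within the family is that of the probes. Among the star arms, let-7d* at 627, let-7a-2* at 619.7 and let-7i* at 499 were detected, and the other 8 were under 300.

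In the miR-30 family, the matched 5p arms of miR-30c, miR-30e and miR-30a share the seed GUAAACA. The family had 8 of 11 probes detected (72.7%), star arms with other seeds included, beside 37.7% of all mouse probes. It held 2.18% ± 0.0977. Its 5p arms were graded from miR-30c with 9518 ± 354 through miR-30b with 7426 ± 187, miR-30e with 6859 ± 940 and miR-30a with 4986 ± 206 to miR-30d with 3124 ± 162. The spots of miR-30b and miR-30e overlapped, and those of miR-30c stood above both. The same seed occurs in miR-384-5p, a miRNA known from brain, and its probe was under the threshold at 175 ± 41.1.

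Among families known from dividing cells and from most tissues, miR-130 and miR-301 held 2.13% ± 0.210. miR-130a read 13552, 17881, 19306 and 19999, and miR-301a read 14564, 15031, 14996 and 14599. The first spot of miR-130a lay below every spot of miR-301a and the other spots above, so the order of this pair does not hold over spots. miR-130b read 954 ± 35.2, although it differs from miR-130a only by U11A and A13G, counted as above from miR-130a. miR-301b with 334 ± 50.8 and miR-721 with 319.8 ± 12.3, which has the same seed AGUGCAA, were just over the threshold.

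The miR-15 and miR-16 family, known for holding back cell cycle genes, held 1.5% ± 0.0152. It had 5 of 13 probes detected (38.5%), a share near the 37.7% of all mouse probes. miR-16 led with 15536, 14454, 14967 and 14679, followed by miR-15a with 5495 ± 172, miR-15b with 1409 ± 49.6 and miR-195 with 1178 ± 73.1. No spots of miR-16 and miR-15a overlapped, nor those of miR-15a and miR-15b. The miR-17-92 cluster and its paralogues, known for promoting proliferation, held 1.89% ± 0.0545 with 14 of 30 probes detected (46.7%). miR-19b with 8846 ± 416 and miR-106b with 6054 ± 96.7 led, and miR-17 and miR-20a gave 1057 ± 62.9 and 1186 ± 27.4. miR-18a and miR-92a, which come from the same primary transcript as miR-17, were at 47.7 ± 9.40 and 28.2 ± 9.37, both far under the threshold.

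The miR-181 family held 1.32% ± 0.123 with 6 of 10 probes detected (60%), beside 37.7% of all mouse probes. miR-181a gave 9961, 13031, 13779 and 14508, the first spot below the others, and miR-181d, miR-181c and miR-181b gave 3800.1 ± 487, 2060.4 ± 55.2 and 1424 ± 103. Outside the largest families, miR-101a read 8498 ± 412, miR-331-3p 7948 ± 136, miR-103 6184 ± 946, miR-22 5590.4 ± 111 and miR-708, which lies within the teneurin gene Tenm4, 5615 ± 72.4. The probe of miR-335-5p, from the imprinted gene Mest, read 5599 ± 238 and the probe of its other arm miR-335-3p 3393 ± 243. The miR-29 family, which rises late in brain maturation, was led by miR-29a with 3256 ± 59.3.

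**Figure D4:**
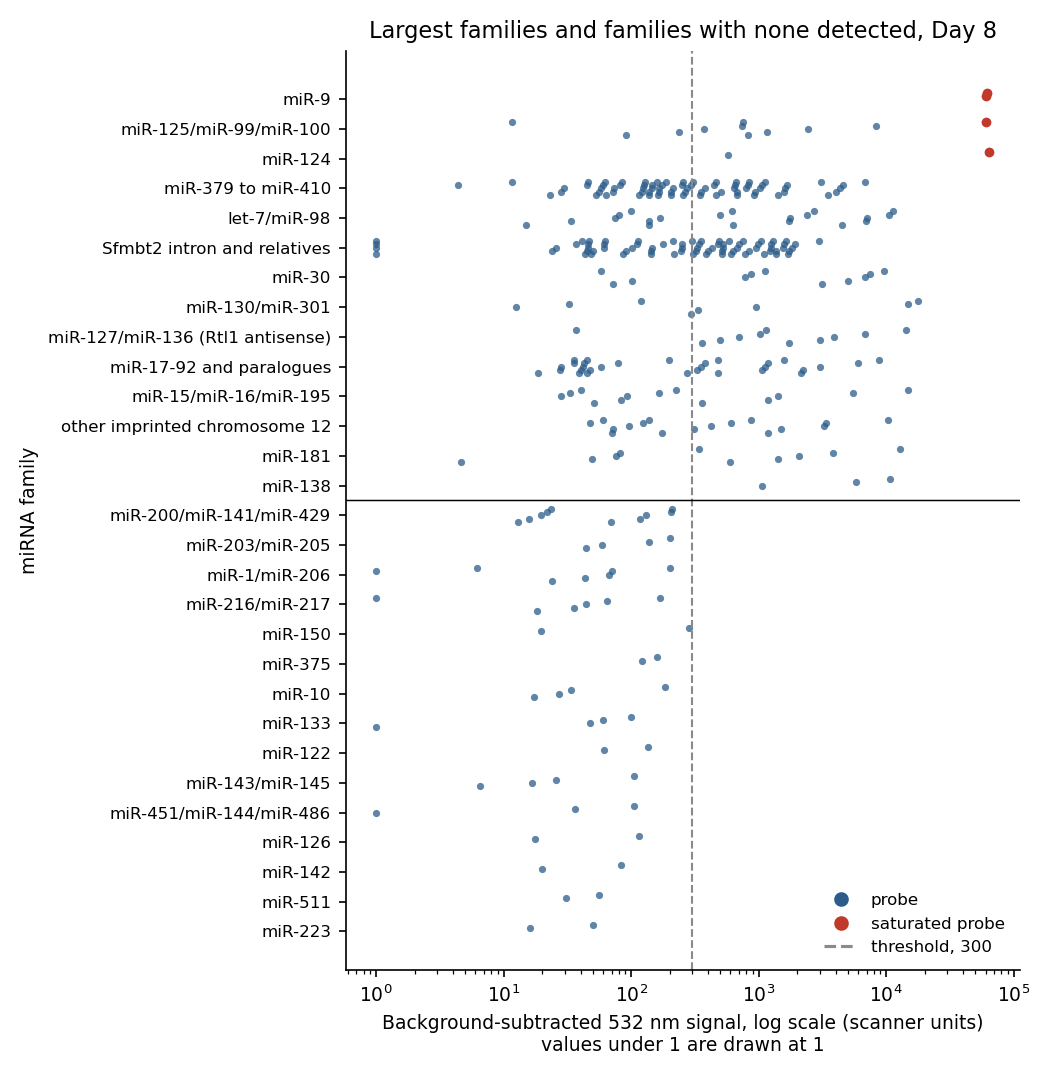
Background-subtracted signal in the green channel (log scale, scanner units) of each probe of the 14 families with 1% or more of the Day 8 signal, in the upper part, and of the 15 families with no detected probe, in the lower. Red points are saturated, the dashed line is the threshold of 300, and values under 1 are drawn at 1. Apart from miR-9, miR-124 and miR-138, each of the 14 families also holds probes under 300, and no probe of the lower families reaches 300.

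The imprinted miRNAs of chromosome 12, expressed from the maternal chromosome and best known from brain, were detected in part. Between Dlk1 and Dio3, at chr12:109452485-110281097, 58 probes were matched by position, of which 31 (53.4%) were detected, beside 41.2% of all 544 matched probes. They held 5.89% of the summed signal. The group around miR-127 and miR-136, encoded opposite to the Rtl1 gene, had 10 of 11 probes detected (90.9%), beside 37.7% of all mouse probes. It held 2.08% ± 0.113. Besides miR-136 the brightest probes of this group were miR-433* with 6852 ± 81.7, miR-434-3p with 3872 ± 548 and miR-127 with 3005 ± 102.

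The larger cluster from miR-379 to miR-410 had 31 of 72 probes detected (43.1%), a share near the 37.7% of all mouse probes, and held 3.23% ± 0.0952 of the signal. miR-376a led with 6785 ± 452, followed by miR-410 with 4549 ± 152, miR-300* with 4324 ± 122, miR-487b with 4026 ± 129 and miR-668 with 3468 ± 112. miR-134, known for its action at dendritic spines, was at 304 ± 8.00 with 2 of its 4 spots at 300 or more. miR-376c had an SD larger than its mean, 674 ± 967, over spots from 188 to 2124. None of the 72 probes was saturated, and the brightest held rank 45.

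The other imprinted miRNAs of chromosome 12 held 1.42% ± 1.24, a spread nearly as wide as the share. It rested on miR-493, whose spots were 41404, 139, 26.6 and 21.0. The first of these had 10% saturated pixels and a signal of 2394 in the red channel, where no dye was used. Its mean of 10398 gave it rank 29, and the ranks over single spot positions ran from 12 to 890. Without spots that reached 300 in the red channel the group held 0.845%. miR-493*, the other arm, was stable with 3387 ± 197, as was miR-665 with 3271 ± 216.

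A mouse cluster within Sfmbt2, an imprinted gene that is active in placenta, and its relatives (miR-297, miR-466, miR-467, miR-468, miR-469 and miR-669) form the listed family with the most probes. Of its 73 probes 40 (54.8%) were detected, beside 37.7% of all mouse probes, and it held 2.58% ± 0.0687 of the signal. The brightest, miR-466i-5p, stood at rank 88 with 2991 ± 70.2. Members of this group are close in sequence and rich in repeats, and cross-hybridisation among its probes was not tested. Of 36 probes of testis clusters on the X chromosome 8 (22.2%) were detected, a share below the 37.7% of all mouse probes. They were led by miR-883a-5p with 3096 ± 64.6.

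The miRNAs that mark other cell types were mostly under the threshold. All 8 miRNAs listed for neurons, a list made with earlier results of these data known, were detected, from miR-132 with 1723 to the saturated miR-124. Over all probes of families listed as neuronal, 29 of 62 (46.8%) were detected, beside 37.7% of all mouse probes. Of 5 listed for astrocytes and mesenchyme, miR-214 alone was detected, with 738 ± 28.1. miR-143, which the study used as an astrocyte marker, read 12.4, 15.8, 31.3 and 43.6, and its neighbour miR-145 6.48 ± 16.0. miR-21 was at 288 ± 21.9, with spots from 268 to 316 around the threshold, and its opposite arm miR-21* was detected with 2858 ± 102.

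None of the 5 miRNAs of microglia and leukocytes on the array under the listed names was detected, beside 37.7% of all mouse probes. miR-223, the glial marker of the study and a myeloid miRNA, read 5.45, 19.8, 26.9 and 12.2. miR-142-3p, defining for blood cells, was at 82.9 ± 9.58, miR-155 at 48.6 ± 9.25, and miR-150 came nearest to the threshold with 285 ± 46.7. Of the star arms, miR-155* was detected at 561 ± 113. The family of miR-511, on the array by arm, had its brighter probe at 56.1 ± 9.12.

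Both miRNAs listed for oligodendrocytes were detected, miR-338-3p with 1234 ± 115 and miR-219-5p with 349 ± 14.4, though the former is also known from neurons. The counts of this paragraph stand beside 37.7% of all mouse probes detected, and each list is short. For endothelium and red cells, 0 of 5 were detected, with miR-126-3p at 116 ± 13.2 and miR-451 at 106 ± 13.2. For epithelium, 0 of 7 were detected, the highest being miR-200b with 206 ± 18.7. For muscle, 0 of the 6 on the array under the listed names were detected. The listed miR-208a is on the array by arm. Its probe miR-208a-5p was detected with 350 ± 9.17, and miR-208a-3p was not, with 237 ± 24.5. The liver list had 1 of 3 (33.3%), miR-194 with 411 ± 13.7, a share near the 37.7% of all mouse probes. miR-122, the main miRNA of hepatocytes, was at 61.4 ± 10.5.

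Of the list for pluripotent cells 3 of 9 (33.3%) were detected, a share near the 37.7% of all mouse probes. miR-290-5p gave 6047 ± 108 and rank 51, miR-302a 3331 ± 79.3 and miR-291a-3p 833 ± 16.9. The cluster mates miR-302b, miR-302c, miR-302d and miR-367, made from the same transcript as miR-302a, were between -9.19 and 100.3, and miR-294 and miR-295 between -3.69 and 51.1. What these probes caught was not tested. In 1 pool of a whole culture, fewer cells of a type and less RNA per cell cannot be told apart.

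**Figure D5:**
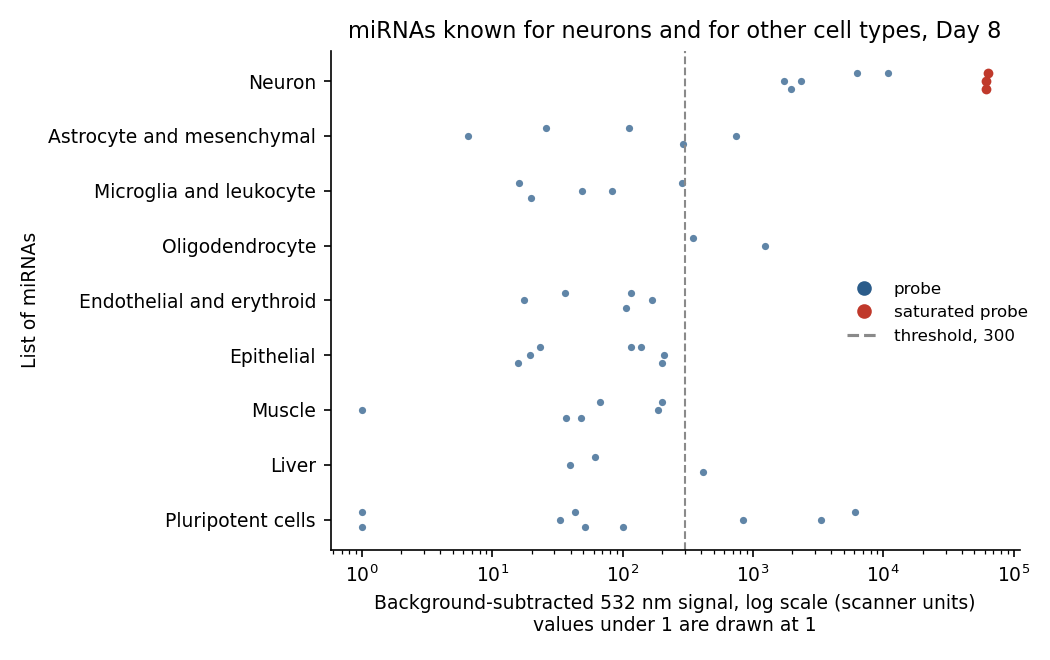
Background-subtracted signal in the green channel (log scale, scanner units) of the listed miRNAs known for neurons and for other cell types, 1 point for each probe on the Day 8 array. Red points are saturated, the dashed line is the threshold of 300, and values under 1 are drawn at 1. All 8 neuronal points lie above the line, and none drawn for microglia, endothelium, epithelium or muscle does. The muscle miRNA miR-208a, on the array by arm, is not drawn. Astrocytes and mesenchyme, oligodendrocytes, liver and pluripotent cells also have points above the line.

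Whole families with no probe at 300 numbered 15. These families were small, with 2 to 10 probes each, and 37.7% of all mouse probes were detected. In order of their brightest probe they were led by miR-150 with 285 ± 46.7, miR-141* of the miR-200 family with 209 ± 7.5, miR-203 with 202 ± 13.6, miR-206 with 202 ± 30.3 and miR-10a* with 183 ± 31.1. The miR-200 family, which keeps epithelial identity, had 0 of 10 probes detected, although 1 spot of miR-200a reached 415 while the mean of that probe was 116 ± 200.1. The miR-10 family, encoded in the Hox clusters and expressed in hindbrain and trunk, had 0 of 4, with miR-10a at 33.8 ± 17.4 and miR-10b at 27.3 ± 21.0. The muscle miRNAs of the miR-1 and miR-206 family had 0 of 7 and miR-133 0 of 4. The muscle family of miR-208 and miR-499 is not among the 15, with 1 of 6 detected.

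The pancreatic and neuroendocrine miR-375 was at 159 ± 17.4. The miR-216 and miR-217 group had 0 of 6, beside 37.7% of all mouse probes, with a highest value of 167 for miR-216a*. The remaining families, miR-203 with miR-205, miR-122, miR-143 with miR-145, miR-451 with miR-144, miR-126, miR-142, miR-511 and miR-223, had a highest signal of 202. All 15 families together held 0.246% of the summed signal. The brightest probes of miR-142, miR-511 and miR-223 lay below the 99th percentile of the empty spots, 91.1, and those of the other families between it and the threshold.

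Star arms were found less often among the detected probes. Of 328 probes with a star, 89 (27.1%) were detected, and of 702 without, 299 (42.6%), beside 37.7% of all. Among the 50 brightest were 4 with a star, miR-9*, miR-491*, miR-3068* with 17837 ± 1797 and miR-433*. Of 179 hairpins with a matched probe for each arm, both arms were detected in 33, a single arm in 82 (39 the 5p and 43 the 3p arm) and neither in 64. In 30 of the 33 the spots of the arms did not overlap.

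For some hairpins the probe of the star arm was the brighter. miR-433* with 6852 stood above miR-433 with 1023 ± 33.1, miR-300* with 4324 above miR-300 with 1123 ± 31.9, miR-25* with 3019 ± 112 above miR-25 with 479 ± 13.3, and miR-204* with 1853 ± 77.0 above miR-204 with 499 ± 7.31. miR-491* stood at rank 10, while the probe of the other arm, miR-491, read 138 ± 19.9. The arms of miR-17, with 1057 and 1126, and of miR-425, with 344 and 357, overlapped over spots, as did those of miR-9 at saturation.

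Seen by sequence, the 544 matched probes held 457 distinct seeds, and 18 seeds were shared by at least 2 detected probes. Among matched seeds, which leave out miR-124, CCCUGAG of miR-125 held 4.31% of the signal, CUUUGGU of miR-9 3.82% and UAAAGCU of miR-9* 3.81%, and since each rests on a saturated probe their order has no meaning. Of the seeds without a saturated probe, AAGGCUA of miR-690 held 3.56% and GAGGUAG of let-7 3.06%. The let-7 seed was found in 10 probes, of which 9 were detected, and the undetected probe was miR-1961 with 207 ± 25.8. Matched probes of the 50 brightest had a median GC content of 43.2%, detected ones 46.7% and those under the threshold 50%, with miR-2137 at 85.7% the extreme among the brightest. A first base of U occurred in 16 of 34 matched sequences (47.1%) among the 50 brightest, in 92 of 224 (41.1%) of those detected and in 96 of 320 (30%) of those under 300.

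By position, 73 matched probes lay on chromosome 12 alone and 38 of them (52.1%) were detected, while on the X chromosome 22 of 71 (31.0%) were, beside 41.2% of all matched probes. Sequences with copies on several chromosomes, such as miR-9 and miR-125b-5p, were detected in 21 of 28 (75%) and held 17.4% of the summed signal. Several of the bright miRNAs lie within the intervals of genes for other products, as miR-16 within Dleu2 and Smc4, miR-301a within Ska2, miR-128 within R3hdm1 and Arpp21, miR-103 within Pank2 and Pank3, and miR-106b within Mcm7.

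The top of the Day 8 ranking was also the top on the other days. Of the 25 brightest probes, 21, 22 and 23 were among the 25 brightest on Days 2, 4 and 6, and 20 were so on every day. All 8 saturated probes were saturated on each of those arrays too. The exceptions to the 20 were miR-2137 (ranks 27, 18 and 12 on Days 2, 4 and 6, and 12 on Day 8), miR-882 (44, 26, 18 and 13), miR-136 (47, 25, 27 and 21), miR-1274a (33, 27, 25 and 22) and let-7e (22, 29, 26 and 25). These arrays were not normalised to each other and each day had 1 pool, so the ranks are set side by side with no test.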

How the data were processed

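Per the labels and the methods, Hy3-labelled total RNA, pooled for each day, was hybridised on LNA probe arrays with miRBase 16.0 names, and the authors quantified spots with Mapix 4.5.0. The deposited scanner files hold intensity in a green (Hy3) and a red channel, local background and the percent of saturated pixels, per the file headers. The deposited value table holds intensity too and equalled the mean over spots of median foreground minus background.

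Mean foreground minus background was averaged over 4 spots. Means below 0 (27 probes) counted as 0 in shares. Depth has no meaning for arrays, and their number, 1 a day, limits the precision. Scripts used Python 3.11.15, pandas 2.3.3 and limma 3.58.1, and were tested on simulated data. RefSeq names were matched by name and, for older names, by the known guide arm.

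Members, families and lists were chosen with earlier results of these data known. Named were the saturated and 25 brightest probes, the brightest of each family, star arms among the 50 brightest, 5 probes either side of the threshold, and miR-124, miR-143 and miR-223. Other members were named after their values were seen.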

Additional observations from a re-analysis of the deposited data

Results flagged for a closer look

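A signal in the red channel, where no dye was used, stood at 1 of 4 spots of miR-493 (2394) and at 1 of 4 spots of miR-802 (2322) on Day 8. The same spots read 41404 and 8394 in the green channel, while the other spots of both probes lay between 18.6 and 139. On Days 2, 4 and 6 no spot of either probe exceeded 218 in the green or 9.20 in the red channel. The highest red signal at any mouse spot was 921, 1071 and 723 on Days 2, 4 and 6. The Day 8 means of miR-493 and miR-802, 10398 and 2124, rest on 1 spot each, and what gave these spots their signal was not tested. Among saturated probes, the red channel also reached 842 for miR-124, 365 for miR-720 and 313 for miR-1937a/miR-1937b. Without spots of 300 or more in the red channel the miR-124 family was left with miR-124* alone. Its share was then 0.0392% in place of 4.01%.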

How the results depend on the processing

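The share of signal in the 10 brightest probes, 37.3%, was 37.9% with the median foreground or the authors' value table, 37.7% with the median over spots, 35.4% without background subtraction, 36.3% with normexp, 37.7% over probes naming 1 mouse miRNA and 37.9% without spots of 300 or more in the red channel, which removed miR-124 and miR-720. It was 27.3% without saturated probes, where by construction fewer probes were counted. The 388 detected probes became 371 to 450 under other ways of measuring, 511 at a threshold of 150 and 286 at 600. Families with no detected probe numbered 13 to 15 under the former and fell from 15 to 8 at a threshold of 150 and rose to 22 at 600. Saturated probes numbered 9 at a limit of 10% and 7 with every spot at 50%, but 2 at 90%. Families with 1% or more of the signal numbered 12 to 15, and of the 25 brightest probes 23 to 25 stayed among the 25 brightest. With the median over spots the other imprinted miRNAs of chromosome 12, which hold miR-493, fell from 1.42% to 0.782%. No paired analysis was possible because each day has 1 array. Saturation limits the upper end and the local background the lower end of what the array can order.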
